A study of Homo sapiens with 12 samples.

Results

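The HOX gene clusters were examined here as a set of 4 genomic windows in 5 untreated human cancer cell lines, using peaks of H3K27ac, the acetylated form of lysine 27 of histone H3, which is found at promoters and enhancers in use. The windows were fixed by position in the hg19 build, with no use of any measured value. The HOXA window was chr7:27120001-27260000 (140 kb), the HOXB window chr17:46600001-46820000 (220 kb), the HOXC window chr12:54320001-54460000 (140 kb) and the HOXD window chr2:176940001-177060000 (120 kb). The 38 genes followed were 10 in HOXA (HOXA2 to HOXA13), 10 in HOXB (HOXB1 to HOXB13), 9 in HOXC (HOXC4 to HOXC13) and 9 in HOXD (HOXD1 to HOXD13). When overlapping peaks of the 8 lists were merged, 52 of 70648 regions lay in these windows, 15 in HOXA, 11 in HOXB, 13 in HOXC and 13 in HOXD.

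The study profiled H3K27ac by chromatin immunoprecipitation and sequencing in H358 and H2009 (lung adenocarcinoma, 2 libraries each), HCC95 (squamous cell lung carcinoma, 1 library), BICR31 (1 library) and Ishikawa (endometrial carcinoma, 2 libraries). The sample label of BICR31 gives lung adenocarcinoma and the design text gives head and neck squamous cells, and the design text was followed. Their labels state no treatment, name no genetic change and give the same culture medium and the same antibody, and each group is a single established line. The labels do not say whether replicates came from separate cultures, so p-values reflect no more than the spread among these libraries, and that spread may be technical. H358 held 26866 and 26954 peaks, H2009 26887 and 26412, HCC95 23400, BICR31 42148 and Ishikawa 24384 and 27311. Of 12 libraries in the series, 4 from H2009 with the labels e3KRAB1, e3KRAB2, Empty and Control entered no comparison. The called bases of a whole list ran from 10.9 Mb to 41.4 Mb and the median peak width from 347 to 1507 bp. A peak list holds no reads, so the depth is unknown, and a window without a peak is one in which none was called, not one shown to lack acetylation. The H358 and H2009 lists were in the narrowPeak form, HCC95 and BICR31 in the broadPeak form and Ishikawa in a 5-column form, so form and type of line cannot be told apart.

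HOX genes encode homeodomain transcription factors that give cells their position along the body axis. Their order on the chromosome follows their order of use: genes at the 3′ end of a cluster, with low numbers, are switched on early and towards the head, and genes at the 5′ end, with high numbers, late and towards the tail. In adult organs much of this pattern persists; HOXA5 is known for its part in lung development, HOXA10 and HOXA11 for theirs in the uterus and endometrium, HOXC13 in hair and nail, and HOXB13 in the prostate. In RefSeq gene order, HOXA2 and HOXB1 lie next to the low-coordinate edge of their windows, and HOXC4 to HOXC6 and HOXD1 next to the high-coordinate edge. Positions below are therefore given as kb from the 3′ edge of each window. No gene positions of the hg19 build were used, so a region is placed in its cluster by distance and is assigned to no promoter, exon or intron, and the lines were not checked against cell type markers.

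The sequence upstream of HOX genes is shown by the genes at the 3′ and the 5′ end of HOXD, HOXD1 and HOXD13. Each run is the 250 bases before the gene's start, 5′ to 3′ on the gene's strand, from RefSeq on GRCh38.p14, with every CpG in capitals.
HOXD1: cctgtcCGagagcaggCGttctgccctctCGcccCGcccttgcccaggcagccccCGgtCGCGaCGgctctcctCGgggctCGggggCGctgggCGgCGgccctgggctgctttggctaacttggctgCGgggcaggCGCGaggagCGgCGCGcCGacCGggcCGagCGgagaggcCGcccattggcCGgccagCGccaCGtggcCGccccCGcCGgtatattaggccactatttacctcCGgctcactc
HOXD13: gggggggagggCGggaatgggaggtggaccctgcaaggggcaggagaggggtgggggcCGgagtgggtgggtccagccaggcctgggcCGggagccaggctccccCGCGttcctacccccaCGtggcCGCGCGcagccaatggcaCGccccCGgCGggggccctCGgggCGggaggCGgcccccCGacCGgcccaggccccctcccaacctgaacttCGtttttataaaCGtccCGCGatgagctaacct
The HOXD1 run held 31 CpG at 74.8% G+C and the HOXD13 run 21 CpG at 74.0%. Of the 38 genes 20 were matched in the promoter table, with 27 start sites. From HOXB this was HOXB1 alone and from HOXC only HOXC4 and HOXC5, so the medians describe mostly HOXA and HOXD. Over these 27 windows the median was 19.0 CpG and 58.8% G+C, and the ratio of observed to expected CpG was 0.888. Over all 35116 windows in the table, from 27305 genes, the medians were 11.0 CpG, 58.0% and 0.558. CpG counts varied widely within HOXA, from 40 at HOXA13 to 8 at HOXA2. One of the 7 windows of HOXA3 held 0. These sequences describe the loci and were not tied to any peak, because the build differs from that of the peak lists.

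The 4 HOX windows together had the fewest called bases in H358 and the most in Ishikawa and BICR31, though by share of the list HCC95 stood above BICR31. H358 had 8 and 5 HOX peaks, H2009 24 and 21, HCC95 26, BICR31 43 and Ishikawa 24 and 29. The called bases were 3169 and 2715 in H358, 8323 and 7807 in H2009, 24919 in HCC95, 39936 in BICR31, and 50682 and 35973 in Ishikawa. H358 was lowest by both measures. To set lists of unequal width side by side, called bases were divided by those of the whole list. This share was 0.0269% and 0.0226% in H358, 0.0767% and 0.0682% in H2009, 0.116% in HCC95, 0.0983% in BICR31, and 0.122% and 0.111% in Ishikawa. In the full lists H358 was again lowest and H2009 next, with no overlap between them. This separation was lost in the higher-ranked 50% of each list, where the shares were 0.0338% and 0.0298% in H358 and 0.0402% and 0.0278% in H2009. Ranked by −log10 q they were 0.0276% and 0.0230% in H358 and 0.0418% and 0.0219% in H2009. The mean was 0.0247% ± 0.00309 in H358, 0.0725% ± 0.00597 in H2009 and 0.117% ± 0.00820 in Ishikawa (SD, n = 2 each).

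As a share of the window bases, 0.511% and 0.438% were called in H358, 1.34% and 1.26% in H2009, 4.02% in HCC95, 6.44% in BICR31, and 8.17% and 5.80% in Ishikawa. Relative to the share of the genome called in the same list, this was 1.32-fold and 1.10-fold in H358, 3.75-fold and 3.34-fold in H2009, 5.69-fold in HCC95, 4.81-fold in BICR31, and 5.99-fold and 5.42-fold in Ishikawa. The pooled value of H358 near 1 covers unequal windows. In its libraries HOXD was called at 1.21% and 1.40% and HOXA at 0.977% and 0.738%, against 0.388% and 0.397% of the genome, while HOXB was at 0%. Libraries of 1 line differed by 0.00814 percentage points in their HOX share of the list on average and libraries of different lines by 0.0508 points. Same-line libraries were closer in this share (exact one-sided permutation p = 0.00952, adjusted over 10 tests p = 0.0190). The test runs over the 420 ways to place 3 same-line pairs among 8 libraries, and its smallest possible p is 0.00238. With 1 library left out there are fewer ways and the smallest possible p is larger, so a lost call need not mean a smaller difference. Leaving out single libraries ended the call in several cases. The difference then ran from 0.0328 to 0.0464 points, against 0.0427 with all libraries. The call was also lost in the higher-ranked 50% of each list (exact permutation, adjusted p = 0.0714).

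**Figure D1:**
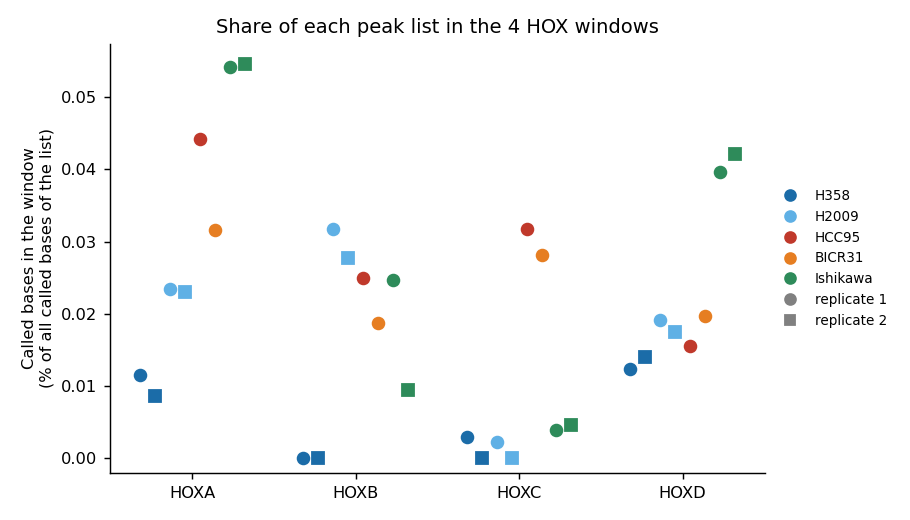
Called bases in each HOX window as a percent of all called bases of the same list (vertical axis) for HOXA, HOXB, HOXC and HOXD (horizontal axis), 1 point per library, coloured by line and shaped by replicate. H358 is at 0% in HOXB in both libraries, the Ishikawa pair is highest in HOXA and HOXD, and HCC95 and BICR31 stand above the other 6 libraries in HOXC.

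In HOXA, whose genes include HOXA5, HOXA9, HOXA10 and HOXA11, Ishikawa had the most called bases and, in the full lists, H358 the fewest. H358 had 4 and 2 peaks, H2009 9 and 8, HCC95 9, BICR31 14, and Ishikawa 11 and 14. Called bases were 1368 and 1033 in H358, 2548 and 2636 in H2009, 9460 in HCC95, 12847 in BICR31, and 22437 and 17737 in Ishikawa. The order of lines was the same for the lowest and the highest when expressed as a share of the list: 0.0116% and 0.00858% in H358, 0.0235% and 0.0230% in H2009, 0.0442% in HCC95, 0.0316% in BICR31, and 0.0542% and 0.0546% in Ishikawa. In the full lists no line with 2 libraries overlapped another, and the order of H358 and H2009 depended on the weaker peaks. With lists cut to equal length the shares of H358 were 0.0129% and 0.00959% and those of H2009 0.0114% and 0.00968%. In the higher-ranked 50% H2009 was lower, at 0.00445% and 0.00509% against 0.0114% and 0.0147% in H358. By −log10 q the line means were 0.00698% in H2009 and 0.0125% in H358. Same-line libraries differed by 0.00131 points and different lines by 0.0241 points (exact one-sided permutation p = 0.00238, the smallest possible; adjusted p = 0.0119). Without replicate 1 and without replicate 2 of H358 the difference was 0.0228 and 0.0218 points, against 0.0228 with all libraries. The call was then lost, in a test with fewer placements.

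The outermost peaks of HOXA spanned 69.3 and 10.7 kb in H358, 77.0 and 64.7 kb in H2009, 104 kb in HCC95, 104 kb in BICR31, and 105 and 105 kb in Ishikawa. The span was thus wide in every line except H358 replicate 2, whose peaks lay in 2 regions. Of the HOXA bases called, the side of the window next to the 3′ end (the first 70 kb) held 47.2% and 0.387% in H358, 68.6% and 71.5% in H2009, 48.1% in HCC95, 67.0% in BICR31, and 33.0% and 29.6% in Ishikawa. BICR31 had more of its called HOXA bases on the 3′ side, and Ishikawa on the 5′ side, the side next to HOXA13. H2009 had more on the 3′ side in the full lists, but its mean of 70.0% became 47.5% with lists cut to equal length, 26.5% in the higher-ranked 50% by −log10 q and 0% in that by fold enrichment. Same-line libraries differed by 17.7 points and different lines by 29.7 points, a difference that missed the threshold (exact one-sided permutation p = 0.140, adjusted p = 0.140). The H358 libraries differed because replicate 1 had peaks at chr7:27131449-27131695 (247 bp) and chr7:27175811-27176106 (296 bp) that replicate 2 lacked. The midpoint falls inside a called region at chr7:27189132-27190947, which gave replicate 2 its 4 bases on the 3′ side.

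One HOXA region, chr7:27199808-27201392 (79.8 to 81.4 kb from the 3′ edge), had a peak in every library. It held 495 and 672 called bases in H358, 256 and 333 in H2009, 614 in HCC95, 296 in BICR31, and 1585 and 1412 in Ishikawa. This was the best-ranked HOXA peak by fold enrichment in both H358 lists (9.58 and 8.33, the authors' values), in H2009 replicate 2 (6.76) and in HCC95 (5.07). The longest unbroken called run of any HOX window was also in HOXA. It was chr7:27208202-27214394 in Ishikawa replicate 1, 6193 bp, where the libraries held 0 and 0 bases in H358, 279 and 0 in H2009, 1689 in HCC95, 1698 in BICR31, and 6193 and 5436 in Ishikawa. Both Ishikawa libraries held more called bases there than any other, in a list form with wider peaks. Near the 3′ end, chr7:27135287-27138216 had peaks in all libraries except those of H358. It held 630 and 288 bases in H2009, 2681 in HCC95, 1694 in BICR31, and 1831 and 1745 in Ishikawa. A region at chr7:27155099-27155447 was found in H2009 (321 and 254 bases) and BICR31 (292) only, and one at chr7:27238153-27240689 in HCC95 (757) and Ishikawa (2502 and 1633) only. The widest HOXA region of a single line, in BICR31, lay at the very 3′ edge, at chr7:27120233-27121585. No library had a peak in the last 19311 bp of the window, from 27240690.

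**Figure D2:**
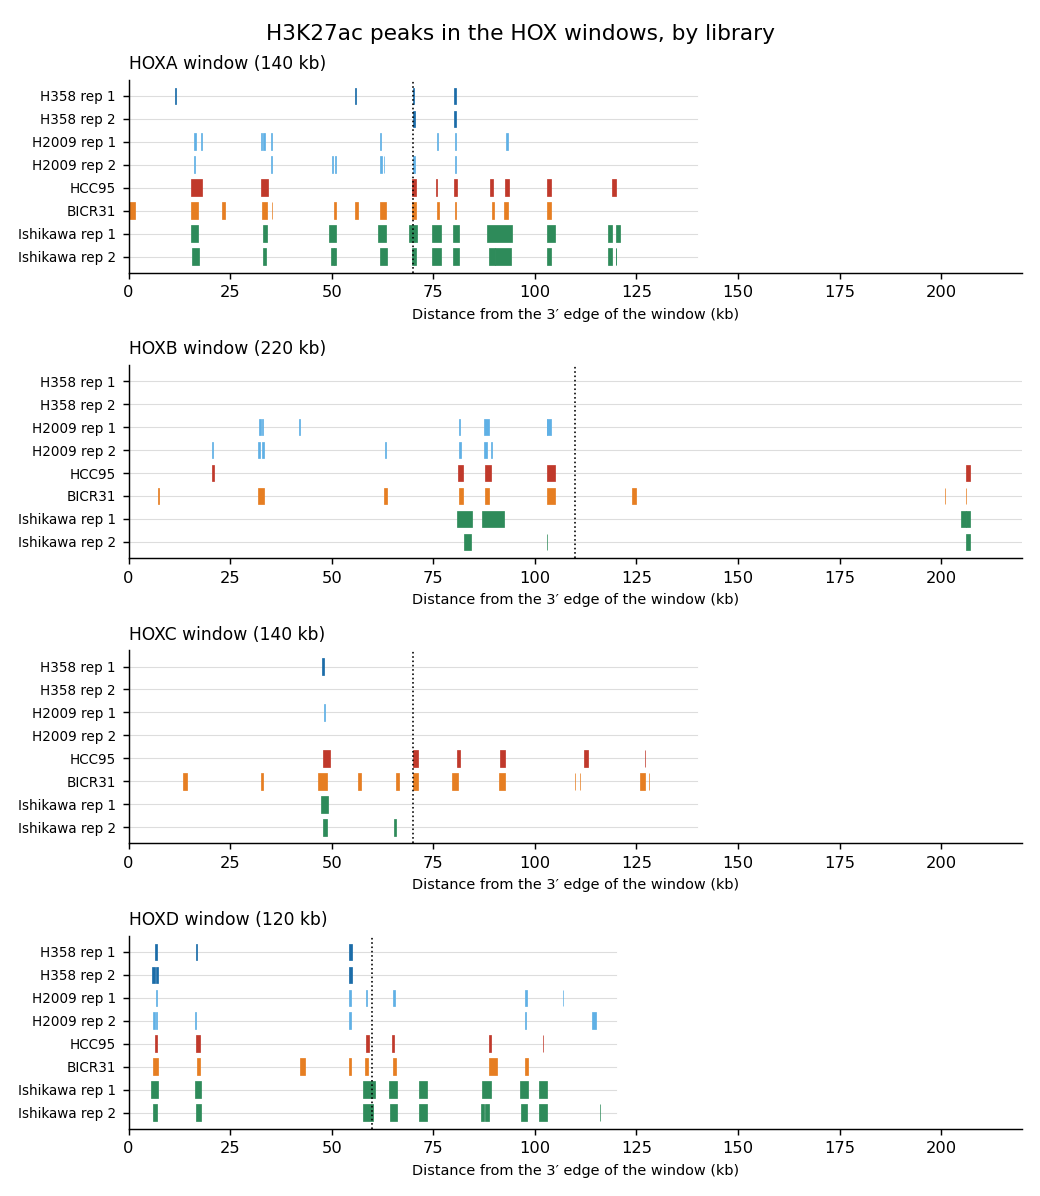
Position of every called peak in the HOXA, HOXB, HOXC and HOXD windows, as distance in kb from the 3′ edge (horizontal axis), 1 row per library. Coloured blocks are peaks drawn to width and the dotted line is the middle of each window. The H358 rows are empty in HOXB, and the right part of HOXC is filled in HCC95 and BICR31.

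In HOXB, both H358 libraries had no peak at all, while every other library had at least 3. The peaks numbered 0 and 0 in H358, 8 and 7 in H2009, 5 in HCC95, 9 in BICR31, and 4 and 3 in Ishikawa. Called bases were 0 and 0 in H358, 3446 and 3166 in H2009, 5338 in HCC95, 7630 in BICR31, and 10228 and 3090 in Ishikawa. The Ishikawa replicates differed widely, and replicate 2 lay below both H2009 libraries. As a share of the list the values were 0% and 0% in H358, 0.0318% and 0.0277% in H2009, 0.0249% in HCC95, 0.0188% in BICR31, and 0.0247% and 0.00952% in Ishikawa. By this measure H2009 was highest in the full lists. In the higher-ranked 50% its mean was 0.0144%, below HCC95 at 0.0265% and BICR31 at 0.0226%, and by −log10 q it was 0.0197% against 0.0292% in HCC95. Same-line libraries differed by 0.00642 points and different lines by 0.0157 points, which missed the threshold (exact one-sided permutation p = 0.0857, adjusted p = 0.0952). Without Ishikawa replicate 1 the adjusted p was 0.0381. A window with no peak is not rare in H358: 31.6% and 33.7% of 11571 genome tiles of the same 220 kb, each with at least part of a merged region, held none.

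Called bases in HOXB lay mostly on the 3′ side of the window, its first 110 kb. That side held 100% of the called bases in both H2009 libraries, 92.3% in HCC95, 72.0% in BICR31, and 88.9% and 66.9% in Ishikawa. In the full lists these shares were all above 50%, with no value for H358. They do not place the peaks near HOXB1. The widest regions of the 3′ side lay at 80.8 to 84.6 kb and 87.0 to 92.3 kb, closer to the cut than to that edge. Much of the 5′ side is a stretch without a peak in any library, described below. The cut is by length alone, and the HOXB genes on each side were not counted. The 3′ side may therefore hold genes with high numbers too, and its share is not a share of low-numbered genes. In the higher-ranked 50% Ishikawa replicate 1 had no HOXB peak and replicate 2 had 1, on the 5′ side. At chr17:46680770-46684561, 80.8 to 84.6 kb from the 3′ edge, all 6 libraries outside H358 had peaks. They held 310 and 466 bases in H2009, 1101 in HCC95, 950 in BICR31, and 3792 and 1676 in Ishikawa. Beside it, chr17:46686977-46692273 held 1312 and 1082 bases in H2009, 1498 in HCC95, 1027 in BICR31, and 5297 and 0 in Ishikawa. This region accounts for much of the gap between the Ishikawa libraries. Its peak in Ishikawa replicate 1 had a score of 51.8 and ranked 23799 of 24384, close to the end of the list. A region at chr17:46631874-46633448 was found in H2009 (802 and 1064 bases) and BICR31 (1494) only. The widest HOXB region of a single line was chr17:46723564-46724925, 1362 bp in BICR31.

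Between 46724926 and 46800842 of chromosome 17, 75917 bp, no library had a peak, the longest such stretch of the 4 windows. HOXB13 is known to lie apart from the rest of its cluster, at the 5′ end. Beyond this gap, chr17:46805488-46806827 (205 to 207 kb from the 3′ edge) had peaks in HCC95 (412 bases), BICR31 (339) and both Ishikawa libraries (1139 and 1023), and in no H358 or H2009 library. Of the 3 HOXB regions on the 5′ side, 0 had a peak in H358 or H2009, 1 in HCC95, 3 in BICR31 and 1 in each Ishikawa library. Over all merged regions 60.9% had no peak in H358, 60.1% in H2009, 67.0% in HCC95, 40.8% in BICR31 and 62.4% in Ishikawa. H358 had no HOXB peak on either side. File form follows the same split of lines, and its part was not tested.

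In HOXC, the cluster of HOXC4 to HOXC13, HCC95 and BICR31 stood above the other lines. The peaks numbered 1 and 0 in H358, 1 and 0 in H2009, 6 in HCC95, 12 in BICR31, and 1 and 2 in Ishikawa. Called bases were 345 and 0 in H358, 241 and 0 in H2009, 6781 in HCC95, 11460 in BICR31, and 1631 and 1488 in Ishikawa. As a share of the list this was 0.00293% and 0% in H358, 0.00222% and 0% in H2009, 0.0317% in HCC95, 0.0282% in BICR31, and 0.00394% and 0.00458% in Ishikawa. Neither of the 2 squamous libraries overlapped the other 6, which hold 3 lines. Same-line libraries differed by 0.00193 points and different lines by 0.0146 points (exact one-sided permutation p = 0.0262, adjusted p = 0.0327). The call was lost under 11 of 14 alternatives, among them the number of peaks (exact permutation, adjusted p = 0.122). Leaving out any 1 of the 6 replicated libraries was also among them. The difference then ran from 0.0133 to 0.0146 points, against 0.0127 with all libraries. HCC95 and BICR31 have no replicate of their own.

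The 5′ side of HOXC, the side of HOXC13, had peaks in HCC95 and BICR31 and in no other library. Of 8 regions there, 5 had a peak in HCC95, 7 in BICR31 and 0 in each of the other 6 libraries. Over all merged regions 33.0% had a peak in HCC95, 59.2% in BICR31, and 22.8%, 22.4% and 28.1% in both libraries of H358, H2009 and Ishikawa. Regions with no peak in either library made up 60.9% of all for H358, 60.1% for H2009 and 62.4% for Ishikawa. The 3′ side held 25.8% of the HOXC bases in HCC95 and 48.2% in BICR31. It held 100% in each H358, H2009 and Ishikawa library with a HOXC peak. Regions with a peak in both HCC95 and BICR31 and in no other line numbered 4 of the 52 HOX regions (7.69%), against 3.56% of all merged regions, and all 4 lay on this side of HOXC. The widest, chr12:54378253-54380539, held 945 bases in HCC95 and 1505 in BICR31. The others were chr12:54388663-54390134 (1364 and 1410 bases), chr12:54367301-54368664 (1265 and 1364) and chr12:54332757-54334289 (620 and 1058). The last of these gave the best-ranked HOXC peak of HCC95, with a fold enrichment of 5.06 and rank 2000 of 23400. BICR31 and HCC95 also share the broadPeak form, and the part of form in this overlap was not tested.

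On the 3′ side, chr12:54410481-54413388 (46.6 to 49.5 kb) had a peak in at least 1 library of every line. It held 345 and 0 bases in H358, 241 and 0 in H2009, 1723 in HCC95, 2228 in BICR31, and 1631 and 969 in Ishikawa. It was the only HOXC region with a peak in H358 or H2009, and in each of those lines 1 library lacked it. In H2009 replicate 1 that peak ranked 26563 of 26887 by fold enrichment (3.17), close to the end of the list. The widest HOXC region of BICR31 alone was chr12:54445530-54446734, and the 1 region of HCC95 alone was chr12:54346986-54347849. The longest HOXC stretch without a peak in any library ran from 54427447 to 54445529, 18083 bp.

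**Figure D3:**
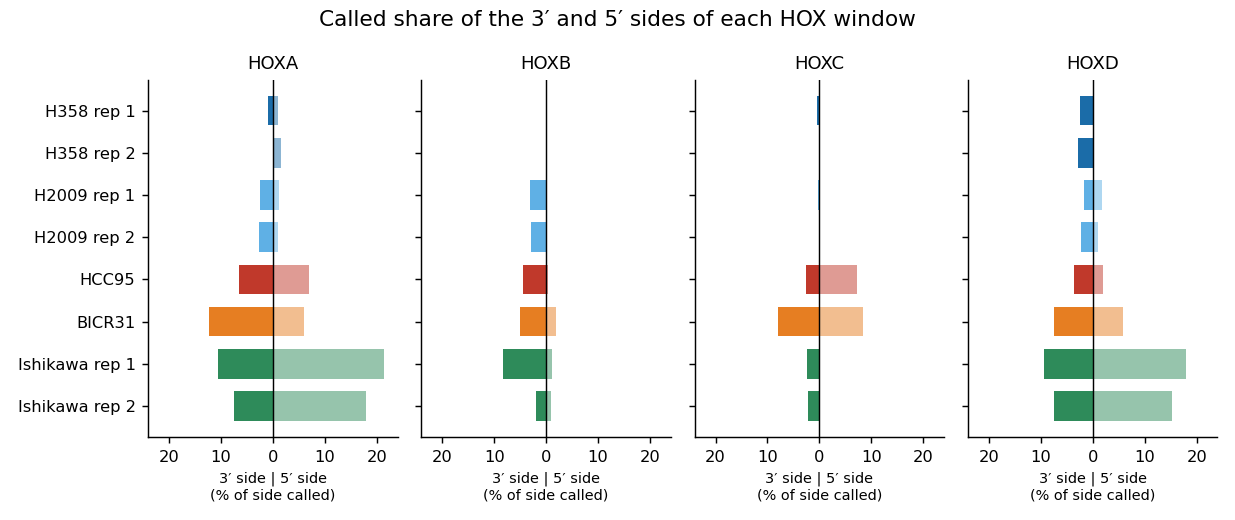
Percent of the bases called on the 3′ side (bars to the left) and the 5′ side (paler bars to the right) of the HOXA, HOXB, HOXC and HOXD windows, 1 bar pair per library, with both axes starting at 0. In HOXD the 2 H358 libraries have bars to the left only, and the Ishikawa bars are longer to the right in HOXA and HOXD.

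In HOXD, every library had peaks, and in the full lists only those of H358 had none on the 5′ side. The outermost peaks spanned 48.5 and 49.0 kb in H358, 100 and 109 kb in H2009 and 95.9 kb in HCC95. In BICR31 they spanned 92.5 kb, and in Ishikawa 97.2 and 110 kb. The peaks numbered 3 and 3 in H358, 6 and 6 in H2009, 6 in HCC95, 8 in BICR31, and 8 and 10 in Ishikawa. Called bases were 1456 and 1682 in H358, 2088 and 2005 in H2009, 3340 in HCC95, 7999 in BICR31, and 16386 and 13658 in Ishikawa. The list shares were 0.0124% and 0.0140% in H358, 0.0192% and 0.0175% in H2009, 0.0156% in HCC95, 0.0197% in BICR31, and 0.0396% and 0.0421% in Ishikawa. Ishikawa lay above all other libraries, and the others spanned 0.0124% to 0.0197%. Same-line libraries differed by 0.00194 points and different lines by 0.0138 points (exact one-sided permutation p = 0.0119, adjusted p = 0.0198). The call was lost without any 1 of the 6 replicated libraries, where the difference ran from 0.00835 to 0.0129 points against 0.0118 with all. It was also lost in the higher-ranked 50% of each list (exact permutation, adjusted p = 0.0952).

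The 3′ side of HOXD, next to HOXD1, held 100% and 100% of the called HOXD bases in H358, 46.5% and 67.4% in H2009, 64.9% in HCC95, 55.8% in BICR31, and 34.2% and 33.0% in Ishikawa. In the full lists H358 was at one extreme and Ishikawa at the other, with means of 100% ± 0 and 33.6% ± 0.856 (SD, n = 2 each) and 57.0% ± 14.8 in H2009. The H358 value rests on 3 peaks per library. The widest of them, at 54.2 to 54.9 kb, lay near the cut at 60 kb and not at the 3′ edge. In the higher-ranked 50% H358 stayed at 100%, but BICR31 also reached 100%, so H358 was no longer alone at that extreme. Ranked by −log10 q BICR31 was at 55.1%. Ishikawa was at 38.0% and 40.4% in the higher-ranked 50%, with H2009 replicate 2 below both at 35.8%. Same-line libraries differed by 7.38 points and different lines by 33.9 points (exact one-sided permutation p = 0.0262, adjusted p = 0.0327). Without either library of H358 the adjusted p was 0.105 and 0.114, without either of Ishikawa 0.106 and 0.107, and in the higher-ranked 50% of each list 0.0804. On the 5′ side, next to HOXD13, 5 of the 8 regions had a peak in both Ishikawa libraries, 1 in both H2009 libraries, 3 in HCC95, 3 in BICR31 and 0 in H358. The shares over all regions, given above for HOXC, were highest for BICR31 (59.2%) and 28.1% for Ishikawa.

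The HOXD region shared by every library was chr2:177052619-177054349, 5.65 to 7.38 kb from the 3′ edge. It held 506 and 1023 bases in H358, 241 and 725 in H2009, 581 in HCC95, 1447 in BICR31, and 1627 and 984 in Ishikawa. A second region, chr2:177005085-177005787, held 703 and 659 bases in H358, 489 and 364 in H2009, 0 in HCC95, 485 in BICR31, and 0 and 0 in Ishikawa. In H358 it was the best-ranked HOX peak of both lists, with fold enrichments of 12.3 (rank 64 of 26866) and 11.0 (rank 135 of 26954). The line with the fewest HOX bases thus had 1 HOX peak near the top of both its lists.

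Ishikawa had 1 HOX region of its own, chr2:176986472-176988601 in HOXD (71.4 to 73.5 kb), with 2130 and 1962 bases. Another on the 5′ side, chr2:176957109-176958746, was found in HCC95 (330 bases) and Ishikawa (1638 and 1431) only. The best-ranked HOXD peak of both Ishikawa lists lay in chr2:176993762-176995802, with deposited scores of 387 and 425. In H2009 replicate 2 the best-ranked HOX peak lay further towards the 5′ end, at chr2:176962104-176962445, with a fold enrichment of 8.08. BICR31 had 1 HOXD region of its own, chr2:177016546-177017723. Next to it the longest HOXD stretch without any peak ran from 177017724 to 177042134, 24411 bp.

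Across the 4 clusters, few HOX regions were common to all lines and most had no peak in H358. A peak in every library was found in 2 of 52 HOX regions (3.85%) and in 12.1% of all merged regions. Of the HOX regions 44 (84.6%) had no peak in H358, against 60.9% of all regions. For the other lines, in the full lists, the HOX share without a peak was below that of all regions: 51.9% against 60.1% for H2009, 51.9% against 67.0% for HCC95, 19.2% against 40.8% for BICR31, and 51.9% against 62.4% for Ishikawa. In the higher-ranked 50% H358 was at 84.6% against 55.1% and H2009 now also above, at 76.9% against 53.7%. HCC95 was then at 69.2% against 67.2% and BICR31 at 41.0% against 40.9%, with Ishikawa still below at 56.4% against 61.2%. Regions of all lines but H358 numbered 2 (3.85%), both named above in HOXA and HOXB, against 0.309% of all regions. These shares are counts over neighbouring regions and carry no test.

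Among regions of a single line, BICR31 alone had 12 HOX regions (23.1%), against 21.9% of all regions, a share near the background. HCC95 alone had 1 and Ishikawa alone 1 (1.92% each), against 6.20% and 5.11%. H358 alone and H2009 alone had 0 HOX regions, against 1.32% and 1.27% of all. HCC95 with Ishikawa only had 2 (3.85%), against 0.450%, 1 each in HOXA and HOXD. H2009 with BICR31 only also had 2 (3.85%), against 0.822%, 1 each in HOXA and HOXB. In just 1 of the 8 libraries there were 18 HOX regions (34.6%), against 47.7% of all.

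**Figure D4:**
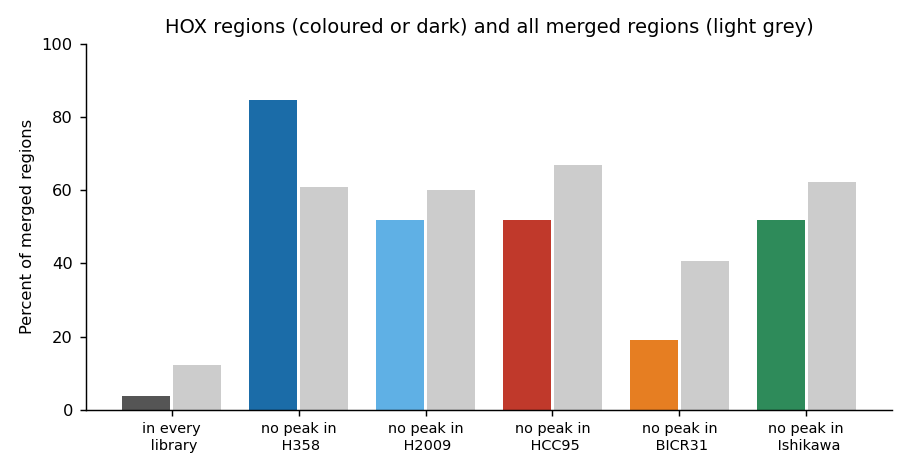
Percent of the 52 merged HOX regions (dark or coloured bars) and of all 70648 merged regions (light grey bars) with a peak in every library, or with no peak in any library of the named line. In these full lists H358 is the line whose HOX bar, at 84.6%, stands above its grey bar, at 60.9%.

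By an index of overlap, libraries of the same line were on average closer in their called HOX bases than libraries of different lines. The measure was the Jaccard index, the bases called in both libraries divided by those called in either. Between replicates it was 0.393 in H358, 0.254 in H2009 and 0.651 in Ishikawa. Over the 25 pairs of different lines it averaged 0.124, from 0.0370 to 0.315, and over the 5 of these in the same file form 0.168. The highest was HCC95 with BICR31, above the H2009 replicates. The index is held down where called bases are unequal. H2009 replicate 1 shared 6581 of its 8323 bases with BICR31 and 3263 with replicate 2, at indices of 0.158 and 0.254. Form and peak width move with the line, and their part in the difference was not tested. The index was taken in the HOX windows only, so closer replicates cannot be called a trait of these clusters. The same limit holds for the tests of list shares and 3′ shares above. The difference of the means, 0.433 against 0.124, gave an exact one-sided permutation p of 0.00476 (adjusted p = 0.0119). In HOXA alone the difference of means was 0.310 (exact permutation p = 0.00476, adjusted p = 0.0119), and in HOXD alone 0.337 (exact permutation p = 0.00238, adjusted p = 0.0119). Without either H358 library all 3 calls were lost, in a test with fewer placements and a larger smallest possible p. Without replicate 1 and without replicate 2 of H358 the differences were 0.302 and 0.305 in HOXA and 0.365 and 0.376 in HOXD. Over all windows they were 0.312 and 0.315, against 0.309 with all libraries. Without Ishikawa replicate 1 and without replicate 2 the HOXA difference fell to 0.158 and 0.163, with the call lost. Over all windows it fell to 0.201 and 0.199, with the call lost only without replicate 2. HOXB and HOXC gave no such value, because pairs of libraries without called bases have no index.

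Within the 4 narrowPeak lists, where file form is the same, H358 and H2009 can be compared directly. The 4 pairs of H358 with H2009 had a mean HOX index of 0.131 and the 2 replicate pairs 0.323. With 3 ways to pair 4 libraries the smallest possible exact permutation p is 0.333, which was the value for this index, for HOXA and for HOXD. The HOX share of the list differed by 0.00641 points between replicates and by 0.0477 points between these 2 lines, again with p = 0.333 (exact permutation test). HOXC went the other way, with 0.00258 points between replicates and 0.00147 points between the lines (exact permutation p = 1). This design is too small to reach the threshold. By regions, 4 of 52 (7.69%) had a peak in both H358 libraries, against 22.8% of all regions. Both H2009 libraries had a peak in 10 (19.2%), against 22.4%, and both Ishikawa libraries in 21 (40.4%), against 28.1%.

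The median HOX peak stood near the list median in HCC95, BICR31 and Ishikawa. It was above that median in H358 by fold enrichment, and below it in H2009. By fold enrichment, or by score in Ishikawa, the median HOX peak stood at percentile 61.1 and 88.7 of the list in H358, 36.4 and 29.3 in H2009, 47.5 in HCC95, 53.7 in BICR31, and 53.9 and 52.7 in Ishikawa. By −log10 q the H358 values were 47.7 and 79.2 and those of H2009 31.9 and 28.7. Many HOX peaks of H2009 thus lay in the lower part of its lists by either value, and 7 of 24 and 5 of 21 were above the list median by fold enrichment. The 8 and 5 HOX peaks of H358 are too few for a stable median. The best HOX peak of BICR31, chr7:27170598-27171044 in HOXA, had a fold enrichment of 8.26 and rank 69 of 42148. That of H2009 replicate 1 was in HOXB (6.73, rank 4862 of 26887) and that of Ishikawa replicate 1 in HOXA (score 399, rank 1881 of 24384).

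**Figure D5:**
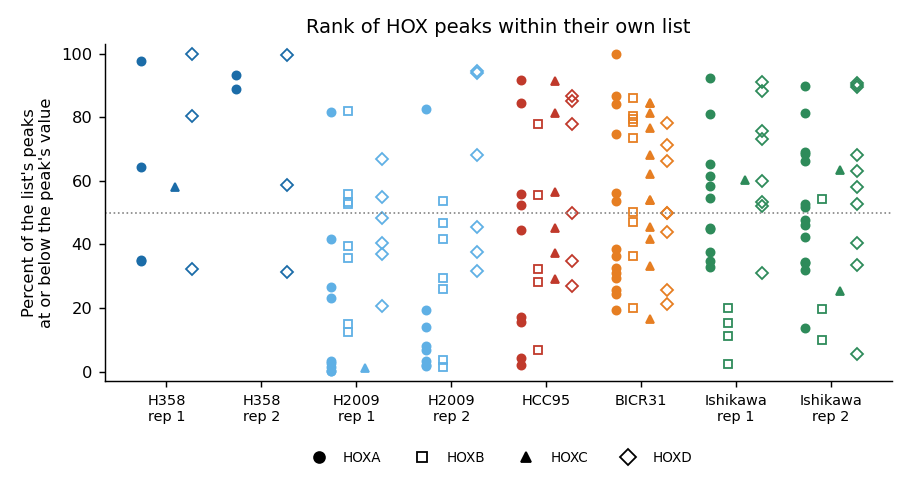
Percent of the peaks of the same list at or below each HOX peak's fold enrichment, or deposited score in Ishikawa (vertical axis), by library (horizontal axis) and by cluster (marker shape: HOXA, HOXB, HOXC, HOXD). The dotted line is the list median, with 7 of 24 peaks of H2009 replicate 1 and 5 of 21 of replicate 2 above it, and the top HOXD peak of both H358 lists is at 99.8 and 99.5.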

How the data were processed

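H3K27ac was measured in 8 untreated libraries of 5 human cell lines, 1 deposited peak list each. The alignment used BWA and hg19, per the submitters' processing notes. Peak caller, version, control and pooling were not given in the sources used here, apart from MACS in the Ishikawa peak names. The narrowPeak and broadPeak lists held the authors' score, fold enrichment ratio, −log10 p and −log10 q per peak, and the narrowPeak lists also an other deposited value, the summit offset, which was left aside. In the Ishikawa lists the authors gave 1 score per peak. These values only ranked or filtered peaks within a list.

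Chromosomes 1 to 22 and X were kept, so 531 peaks of the 8 lists were left out. Overlaps needed 1 bp. A region belongs to a line if every library of it has a peak there. For HOX windows the Jaccard index, the called share of the list and the share on the 3′ side were compared by exact one-sided permutation tests over 420 assignments of libraries, Benjamini-Hochberg adjusted over 10 tests with a threshold of 0.05. Scripts used Python 3.11.15, numpy 2.4.6 and pandas 2.3.3 and were tested on simulated data. Named regions were the widest of each class, the longest called run and peak-free stretch, and the best-ranked peak per library and cluster; the other regions were picked after their values were seen. Members and lists were chosen with earlier results of these data known. Gene starts were left out, since no hg19 annotation was used here. Alternatives were the higher-ranked 50% of each list, lists of equal length, peaks set to 1000 bp, other windows, cuts and overlap rules, and leaving out libraries.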

Additional observations from a re-analysis of the deposited data

Results flagged for a closer look

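A HOX peak appeared in data outside the 8 lists compared. The H2009 library labelled e3KRAB2, whose list of 1375 peaks was not used in any comparison, held 1 peak in the HOXB window, while the libraries labelled Empty (1960 peaks) and Control (3250 peaks) held 0 HOX peaks, as did the library labelled e3KRAB1. It lay at chr17:46632386-46632746, with a fold enrichment of 4.85, inside the HOXB region chr17:46631874-46633448 found in H2009 and BICR31 only. The difference of 1 peak between single lists was not tested. Peak names in that list carry the tag Ctrl2, which goes against its label, and those in the Control list the tag D98, which its label does not give. Both are named here by the label alone.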

How the results depend on the processing

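Of 209 alternative values, 141 kept their direction and their side of the threshold, or for counts stayed within 1.5 times, and 68 did not. The causes were not tested. Ranking by −log10 q, leaving out BICR31 and the shares within narrowPeak lists were added after seeing the data. No paired analysis was possible because replicate numbers name libraries of different lines and no result compares group means. The index for HOXB and HOXC and their 3′ shares had no value in some libraries and were not run, and the HOXD 3′ share had none by −log10 q, since H2009 replicate 1 then had no HOXD base. Peak lists carry no depth, which limits every absence of a peak.

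The direction turned for the HOXA 3′ share, at −1.68 points with lists cut to equal length, and for the HOXC list share, at −0.00111 within narrowPeak lists. In the higher-ranked 50% the index difference was 0.179 in HOXA (adjusted exact permutation p = 0.0714), the HOXD 3′ share difference 29.8 points (0.0804), and the list share differences 0.0144 in HOXC (0.0536), 0.0170 in HOXD (0.0952) and 0.0430 over all windows (0.0714). By −log10 q the values were 0.165 for the HOXA index (0.0679), and 0.0171 in HOXD (0.116) and 0.0476 over all windows (0.0679) for list shares. Within narrowPeak lists the index differences were 0.167 in HOXA, 0.0580 in HOXD and 0.192 over all windows, the HOXD 3′ share difference 32.6 points, and the list share differences 0.0114 in HOXA, 0.00355 in HOXD and 0.0413 over all windows. With 3′ against 5′ outer parts of HOXD, leaving out the middle, the 3′ share difference was 24.6 points (0.0571). The HOXC list share difference was 0.00934 with peaks of 1000 bp, 0.00957 by number of peaks and 0.00951 without BICR31. HOXB gained the call at 0.0105 in lists of equal length, 0.0121 with peaks of 1000 bp and 0.0118 by number of peaks.

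Leaving out each replicated library in turn, the index difference ran from 0.158 to 0.449 in HOXA, from 0.176 to 0.461 in HOXD and from 0.199 to 0.399 over all windows. The HOXD 3′ share difference ran from 17.9 to 36.3 points. The list share differences ran from 0.0202 to 0.0238 in HOXA, 0.00385 to 0.0152 in HOXB, 0.0133 to 0.0146 in HOXC, 0.00835 to 0.0129 in HOXD and 0.0328 to 0.0464 over all windows. Regions of Ishikawa only ran from 1 to 5.

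Regions of 1 line only numbered 14, and 29 where peaks had to cover 50% of a region and 9 without BICR31. Regions in every library numbered 0 in the higher-ranked 50% by either value, 0 at 50% cover and 5 where any library of a line counted. Regions of Ishikawa only numbered 3 and 2 in the higher-ranked 50% by fold enrichment and by −log10 q, 11 at 50% cover and 2 where any library counted. HCC95 and BICR31 only fell to 2 in the higher-ranked 50%.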

Other observations

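The fourth short H2009 list, labelled e3KRAB1, held 2315 peaks and 0 HOX peaks. At the HOX share of the untreated H2009 lists, the 4 short lists would hold between 1.09 and 2.90 HOX peaks each. The best-ranked peaks of the untreated H2009 lists, taken to the same lengths by fold enrichment, held 0 HOX peaks in replicate 1 and 0 to 2 in replicate 2. The short lists therefore carry too few peaks to describe the HOX clusters.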
